A study of Rattus norvegicus with 10 samples.

Results

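The genes described here are 9 interferon-stimulated genes of the rat: Stat2, Irf9, Irf1, Irf7, Ifit2, Ifit3, Isg15, Mx1 and Mx2. They were chosen by gene symbol, and all 9 were found among the 17168 genes of the deposited tables. RNA was sequenced from the left hippocampus, 1 library per rat, of 10 TgF344-AD rats, all male and 11 months old. All 10 animals carry the human transgenes of this Alzheimer's disease model, which the mouse prion promoter drives, so both groups share the disease genotype and no wild-type animal is compared. The 5 untreated rats received no drug. The 5 RG2833 rats ate chow with 750 mg of RG2833 per kg from 5 months of age for 6 months. RG2833 inhibits HDAC1 and HDAC3, enzymes that remove acetyl groups from histones. One sentence of the series' design text names ibudilast in place of RG2833; the series title and the labels of the treated samples name RG2833.

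Interferons are cytokines of antiviral defence. Type I interferon binds a receptor whose kinases, JAK1 and TYK2, activate STAT2; STAT2 and IRF9 are subunits of the ISGF3 complex, which binds the interferon-stimulated response element (ISRE) in the promoters of its target genes. The response to interferon gamma runs through another element, the gamma-activated site (GAS). In brain the targets are transcribed mainly by microglia, astrocytes and endothelial cells, and a type I interferon response of microglia is known from amyloid models.

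Promoters of these genes are shown because the 2 elements above tie the genes to the pathway. RefSeq promoter windows of the GRCr8 build, from 250 bases before to 50 after a gene's start, were given for 6 of the 9 genes, without Ifit2, Isg15 and Mx2. The ISRE core was searched as GAAA, 2 bases of any kind and GAAA again, and the GAS as TTCNNNGAA, on both strands (the GAS pattern is its own reverse complement, and the 2 patterns may overlap). Irf7 and Ifit3 held an ISRE core, Irf1 and Irf9 a GAS, and Stat2 and Mx1 neither in this window. The stretches lie at chr1:241527176-241527325 (+ strand, the 150 bases before the start), chr1:205800073-205800102 (- strand, 30 bases around the match), chr10:38417785-38417934 (+ strand, the 150 bases before the start) and chr15:33065727-33065756 (+ strand, 30 bases around the match). They are given 5′ to 3′ on the gene's strand, with the matched letters in capitals:
Ifit3: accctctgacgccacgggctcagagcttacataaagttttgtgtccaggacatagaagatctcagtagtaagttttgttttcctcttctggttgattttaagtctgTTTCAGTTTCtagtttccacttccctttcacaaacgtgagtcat
Irf7: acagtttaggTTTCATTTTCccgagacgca
Irf1: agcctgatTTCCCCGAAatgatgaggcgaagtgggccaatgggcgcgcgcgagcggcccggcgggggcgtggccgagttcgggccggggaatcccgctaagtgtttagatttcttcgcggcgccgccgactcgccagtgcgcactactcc
Irf9: accacgtgatTTCTAGGAActgcacctccc
Counted from the start, the matches span -44 to -35 in Ifit3, -69 to -60 in Irf7, -142 to -134 in Irf1 and -99 to -91 in Irf9. In Ifit3 and Irf7 the capitals are the reverse complement of the ISRE core. An ISRE core was found in 3.92% of all 33469 promoters and a GAS in 8.87%. Among 72 promoters of other interferon pathway genes, a list described further on, 41.7% held an ISRE core and 25.0% a GAS. A match is a string of letters and not a measured binding site.

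No difference between RG2833 and untreated rats was detected for any of the 9 genes. With edgeR's quasi-likelihood test over 12161 genes, 0 of the 9 had an adjusted p under 0.05 and 0 an unadjusted p under 0.05. Over all genes tested, 0.0% passed the adjusted threshold and 5.66% the unadjusted one, 2.71% lower and 2.94% higher in RG2833 rats. DESeq2 called 0 of the 9 at either threshold, and 7 of all genes tested at the adjusted one. Its share over all genes at the unadjusted threshold is not given here. Of the 9, 6 had a lower fitted value in RG2833 rats (66.7%) and 3 a higher one, where 53.5% of all genes tested were lower. The median log2 fold change of the 9 was -0.082, and that of all genes tested was -0.011. In 0 of the 9 did the ranges of the groups separate, against 1.0% of all genes tested. Since the tissue is bulk hippocampus, fewer cells of a type and less RNA per cell cannot be told apart.

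Values below are CPM, counts per 1000000 counts of the TMM-scaled library size, in the order of replicates 1 to 5, and means carry their SD (n = 5 each). Markers of dentate granule cells, a hippocampal cell type (5 of 6 in the table, Tdo2 at 0 throughout), summed to 102 to 260 CPM in untreated and 136 to 225 CPM in RG2833 libraries, and 8 general neuronal markers to 6591 to 8064 and 7110 to 8539 CPM. Choroid plexus markers summed to 7913 CPM in untreated replicate 2 and 9182 CPM in RG2833 replicate 1, against 7.68 to 277 CPM in the other 8 libraries. Without these 2 libraries, 0 of the 9 genes passed at an adjusted p under 0.05 with edgeR, in a fit where 4.9% of all genes had an unadjusted p under 0.05. No transcript lengths were used, so levels of different genes are not compared. Log2 fold changes are RG2833 over untreated, with Benjamini-Hochberg adjustment over all genes tested. Exact permutation tests are two-sided over all 252 regroupings of the 10 libraries, unadjusted, with 0.00794 as the smallest possible p.

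Stat2 and Irf9 encode subunits of ISGF3. Stat2 measured 50.4, 48.3, 48.4, 44.1 and 43.4 CPM in the untreated rats and 46.4, 46.4, 45.6, 48.0 and 43.2 CPM in the rats given RG2833. It was the steadiest of the 9, with an SD of 6.40% of the mean in untreated and 3.87% in RG2833 rats, and 4 of 5 RG2833 values lay inside the untreated range. Its means were 46.9 ± 3.00 and 45.9 ± 1.78 CPM, and the log2 fold change was -0.030 (SE 0.059, 95% interval -0.16 to 0.10) (edgeR adjusted p = 0.969, exact permutation p = 0.563). Leaving out 1 library gave log2 fold changes from -0.056 (untreated replicate 5) to -0.0032 (untreated replicate 1). The interval excludes a fold change below 0.895 or above 1.07. Irf9 measured 14.3, 15.4, 16.1, 14.5 and 20.4 CPM in the untreated rats and 15.7, 17.7, 17.5, 15.1 and 16.3 CPM in the rats given RG2833. Untreated replicate 5 was the highest library, and all 5 RG2833 values lay within the untreated range. The log2 fold change of Irf9 was 0.024 (SE 0.10, 95% interval -0.21 to 0.25) (edgeR adjusted p = 0.991, exact permutation p = 0.786), and its sign was negative without untreated replicate 1 (-0.016), untreated replicate 4 (-0.012) or RG2833 replicate 2 (-0.0032).

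Irf1 and Irf7 are interferon regulatory factors that are themselves induced: Irf1 mainly downstream of interferon gamma, and Irf7 as the factor that amplifies type I interferon production. Irf1 measured 10.7, 12.4, 12.1, 10.2 and 9.77 CPM in the untreated rats and 11.6, 9.88, 9.53, 11.2 and 9.96 CPM in the rats given RG2833. The 2 highest values came from untreated replicates 2 and 3, and the groups overlapped. Its log2 fold change was -0.082 (SE 0.10, 95% interval -0.29 to 0.13) (edgeR adjusted p = 0.939, exact permutation p = 0.381). It lay between -0.12 (RG2833 replicate 1 left out) and -0.037 (untreated replicate 2 left out). Irf7 measured 4.96, 7.89, 8.42, 7.10 and 7.65 CPM in the untreated rats and 6.39, 7.21, 5.24, 6.51 and 5.53 CPM in the rats given RG2833. The lowest of all 10 libraries was untreated replicate 1, while the other 4 untreated libraries were at 7.10 CPM or more, a level that 1 RG2833 library reached. Means were 7.20 ± 1.34 and 6.18 ± 0.793 CPM, and the log2 fold change was -0.22 (SE 0.15, 95% interval -0.56 to 0.11) (edgeR adjusted p = 0.881, exact permutation p = 0.222). Without untreated replicate 1 the log2 fold change was -0.33, with an unadjusted edgeR p of 0.0205, an adjusted p of 0.913 and an exact permutation p of 0.0238; its adjusted p lay between 0.633 and 1.00 in the alternatives.

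**Figure D1:**
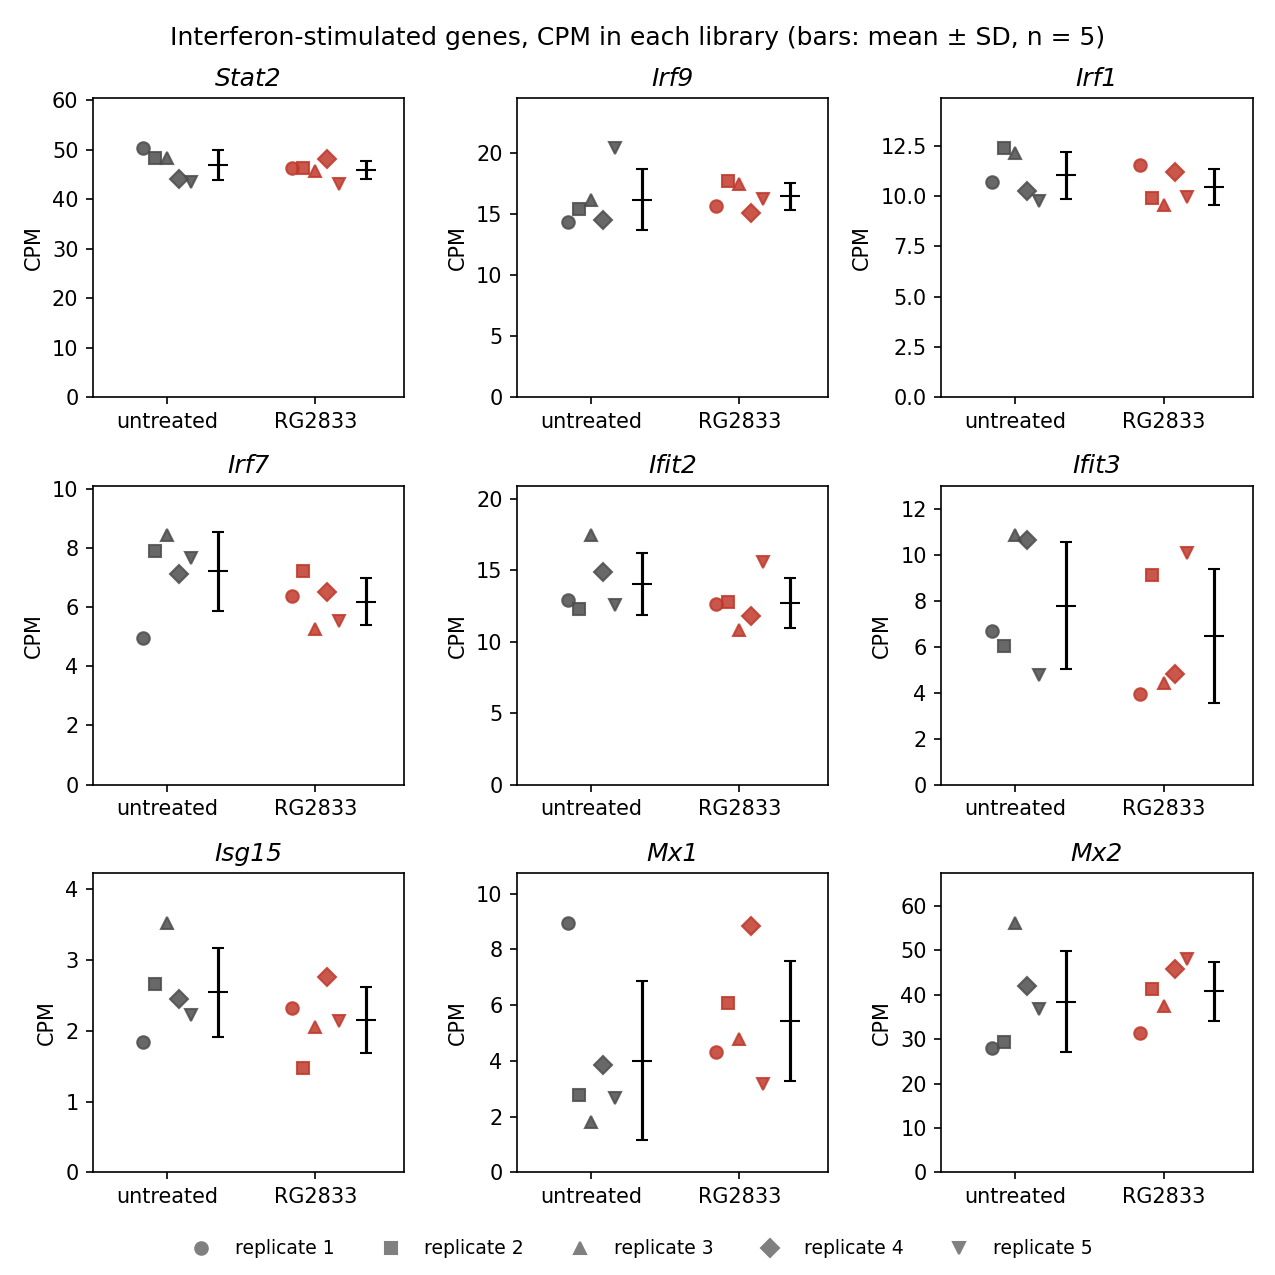
CPM (vertical axis, from 0, a separate scale for each gene) of the 9 interferon-stimulated genes in 5 untreated and 5 RG2833 libraries; each point is 1 rat, its shape is the replicate number, and bars give the mean ± SD. The groups overlap for all 9 genes. Ifit3 has 4 libraries, 2 in each group, between 9.14 and 10.9 CPM and the other 6 between 3.94 and 6.69 CPM.

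Ifit2 and Ifit3 belong to the IFIT family, cytoplasmic proteins with tetratricopeptide repeats that bind foreign RNA or each other. Ifit2 measured 12.9, 12.3, 17.4, 14.9 and 12.6 CPM in the untreated rats and 12.6, 12.8, 10.8, 11.8 and 15.6 CPM in the rats given RG2833. Untreated replicate 3 was the highest of the 10, RG2833 replicate 5 the next and RG2833 replicate 3 the lowest. The log2 fold change was -0.14 (SE 0.13, 95% interval -0.42 to 0.14) (edgeR adjusted p = 0.919, exact permutation p = 0.317). With untreated replicate 3 left out the value was -0.052, and with RG2833 replicate 5 left out -0.22. The expected counts of Ifit2 were not whole in 10 of 10 libraries, so some of its reads were divided with other genes, and no single gene completed them to whole numbers. Ifit3 measured 6.69, 6.04, 10.9, 10.7 and 4.78 CPM in the untreated rats and 3.94, 9.14, 4.41, 4.82 and 10.1 CPM in the rats given RG2833. Untreated replicates 3 and 4 and RG2833 replicates 2 and 5 were high and the other 6 libraries low, so each group held both levels. The spread within a group was wide, with an SD of 35.6% of the mean in untreated and 44.8% in RG2833 rats. The log2 fold change was -0.27 (SE 0.33, 95% interval -0.98 to 0.45) (edgeR adjusted p = 0.945, exact permutation p = 0.405), and the interval reaches from 0.506-fold to 1.37-fold. Leaving out untreated replicate 3 gave -0.12, and leaving out RG2833 replicate 5 gave -0.48. Ifit2 and Ifit3 were the pair of members with the most similar pattern over the 10 libraries (Pearson r = 0.82, given as a description).

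Isg15 encodes a ubiquitin-like protein that is conjugated to other proteins in infected cells. Its level was low, with 26 to 59 counts per library. It measured 1.85, 2.66, 3.52, 2.45 and 2.23 CPM in the untreated rats and 2.32, 1.48, 2.05, 2.76 and 2.14 CPM in the rats given RG2833, highest in untreated replicate 3 and lowest in RG2833 replicate 2. The log2 fold change was -0.24 (SE 0.22, 95% interval -0.72 to 0.23) (edgeR adjusted p = 0.919, exact permutation p = 0.310), and it was -0.098 without untreated replicate 3.

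Mx1 and Mx2 encode dynamin-like GTPases that block the replication of viruses, and in these data they shared reads. The expected counts of each were not whole in any of the 10 libraries, while their sum was whole in 10 of 10 (tolerance 0.005), and for each of them no other gene of the table gave whole sums. Each gene's own value is therefore uncertain, and their sum, a measure added after the data were seen, does not depend on the division. The sum measured 37.0, 32.2, 58.0, 45.8 and 39.5 CPM in the untreated rats and 35.8, 47.5, 42.2, 54.7 and 51.2 CPM in the rats given RG2833, with untreated replicate 3 highest and untreated replicate 2 lowest. Means of the sum were 42.5 ± 9.95 and 46.3 ± 7.46 CPM, and its log2 fold change was 0.12 (SE 0.16, 95% interval -0.23 to 0.48) (edgeR adjusted p = 0.946, exact permutation p = 0.444). The sum also moved with single libraries, from 0.039 without untreated replicate 2 to 0.26 without untreated replicate 3.

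In untreated rats Mx1 alone had the widest spread of the 9, with an SD of 71.4% of the mean; in RG2833 rats its SD was 39.7%, below that of Ifit3. Mx1 measured 8.94, 2.77, 1.79, 3.86 and 2.66 CPM in the untreated rats and 4.32, 6.08, 4.80, 8.83 and 3.18 CPM in the rats given RG2833. Untreated replicate 1 and RG2833 replicate 4 were high, and untreated replicate 3, the highest for Mx2 and for the sum, was the lowest for Mx1. The share of the summed counts given to Mx1 was 24.2% (95% Wilson interval 21.0 to 27.6, counting error only) in untreated replicate 1. It was 3.09% (2.17 to 4.38) in untreated replicate 3, from 6.75% to 8.63% in the other untreated libraries, and from 6.20% to 16.2% in RG2833 libraries. The log2 fold change of Mx1 was 0.45 (SE 0.42, 95% interval -0.49 to 1.38) (edgeR adjusted p = 0.920, exact permutation p = 0.238). Without untreated replicate 1 it was 0.98, with an unadjusted edgeR p of 0.0117, an adjusted p of 0.913 and an exact permutation p of 0.0317, while that of the sum was 0.078 (unadjusted edgeR p = 0.664). Without RG2833 replicate 4 the value of Mx1 was 0.21. The adjusted p of Mx1 lay between 0.777 and 1.00 in the alternatives. Mx2 measured 28.0, 29.4, 56.2, 41.9 and 36.9 CPM in the untreated rats and 31.5, 41.4, 37.4, 45.9 and 48.0 CPM in the rats given RG2833, all RG2833 values within the untreated range. Its log2 fold change was 0.086 (SE 0.19, 95% interval -0.33 to 0.51) (edgeR adjusted p = 0.976, exact permutation p = 0.587). Leaving out untreated replicate 1 gave -0.0080, and leaving out untreated replicate 3 gave 0.26.

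**Figure D2:**
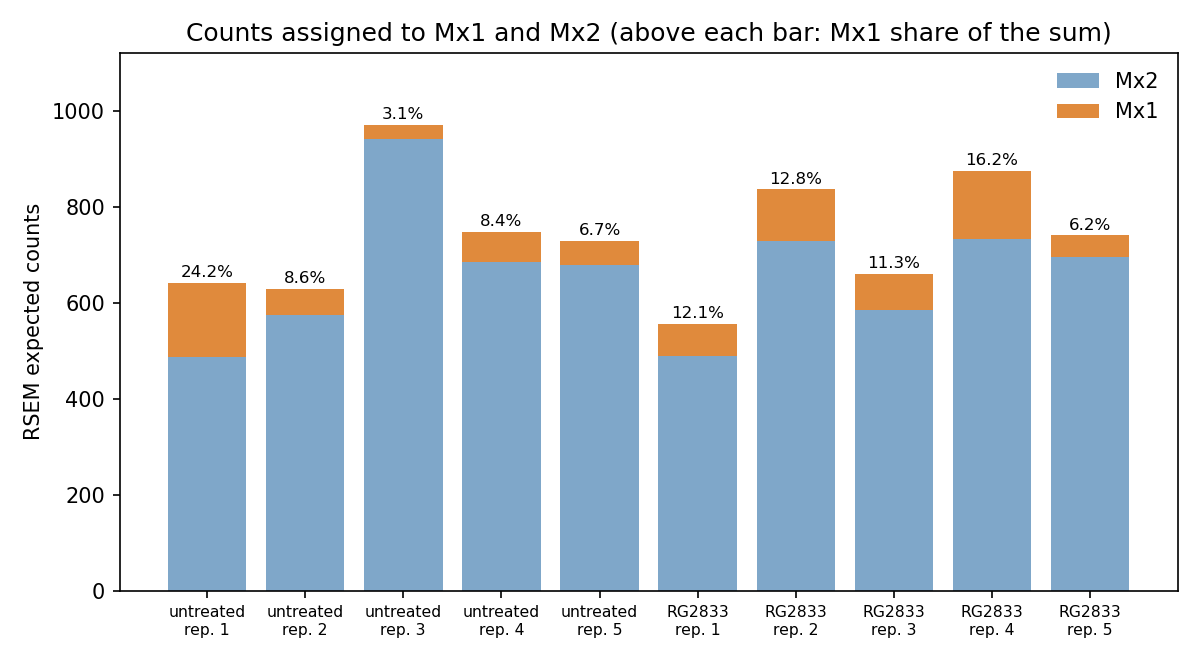
RSEM expected counts (vertical axis, from 0) assigned to Mx2 (blue) and Mx1 (orange) in each of the 10 libraries, stacked; the number above a bar is the Mx1 share of the sum. The share runs from 3.09% to 24.2% in untreated and from 6.20% to 16.2% in RG2833 libraries, while the sum runs from 555 to 971 counts.

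**Figure D3:**
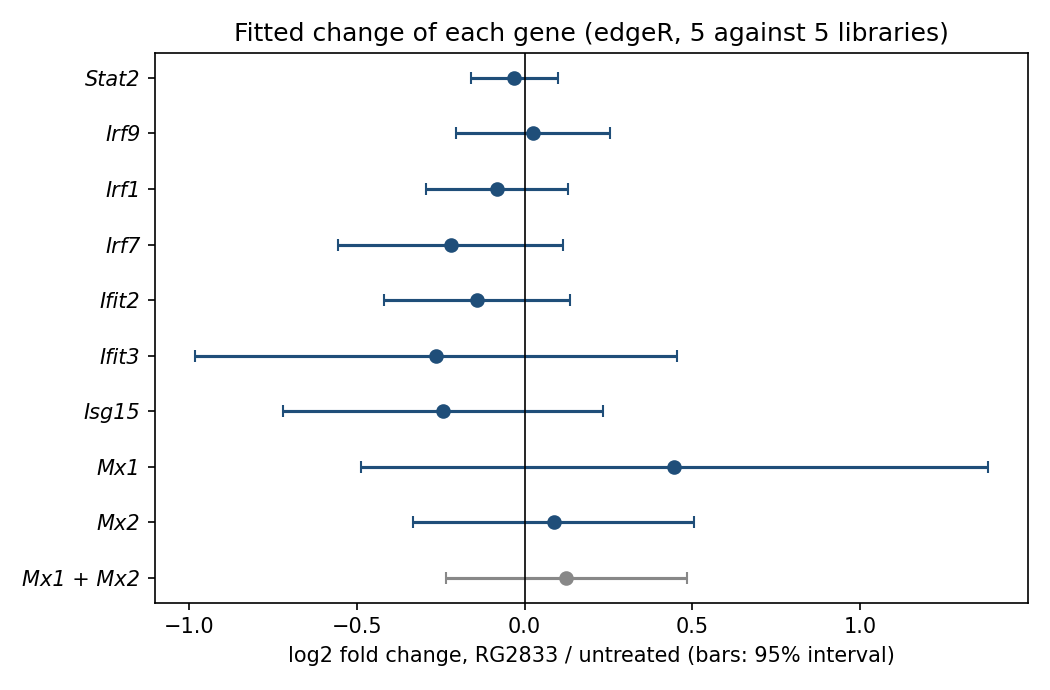
Fitted log2 fold change (RG2833 over untreated, horizontal axis) of each of the 9 genes and of the Mx1 + Mx2 sum, from edgeR with 5 libraries per group; bars are 95% intervals. Every interval includes 0, and that of Stat2 is the narrowest and that of Mx1 the widest.

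The 9 genes did not vary as 1 block over the 10 libraries. Of the 36 pairs, 18 had a positive Pearson r of log2 CPM, the median was 0.020, and the range ran from -0.62 for Irf7 and Mx1 to 0.82 for Ifit2 and Ifit3. With Mx1 left out the median over 28 pairs was 0.20, with 17 of 28 above 0. With Mx1 and Mx2 summed it was 0.15. Among the 74 other interferon pathway genes described further on, 1831 of 2701 pairs were above 0, with a median of 0.26. The 66 pairs of 12 microglial markers in the same libraries were all positive, with a median of 0.90. Without untreated replicate 3, 15 of the 36 pairs of the 9 genes were above 0 and their median was -0.055, while that of the microglial markers was 0.83. These correlations are descriptions, since all genes share the same 10 libraries and their depth. Gene pairs of matched level were not compared, so the part of counting error in genes of low count, such as Isg15 and Mx1, was not tested.

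A subset stood high in 1 animal. Untreated replicate 3 was the highest library for 5 of the 9 genes, Irf7, Ifit2, Ifit3, Isg15 and Mx2, and the lowest for Mx1. No RG2833 library, nor untreated replicate 4, was the highest for any of the 9. How many of all genes tested were highest in untreated replicate 3 was not counted. The summed level of 12 microglial markers, among them Aif1, Cx3cr1, P2ry12, Tmem119 and Csf1r, was 1188 CPM in that library, against 639 to 704 CPM in the other 4 untreated and 687 to 967 CPM in the RG2833 libraries. All 12 markers were highest there. Endothelial markers (9 of 10 in the table) summed to 455 CPM in that library, 237 to 309 CPM in the other untreated and 288 to 506 CPM in RG2833 libraries. The animals were perfused before dissection. Blood leukocyte markers (10 of 12 in the table) summed to 18.9 CPM in that library, 12.5 to 15.8 CPM in the other untreated and 13.2 to 15.4 CPM in RG2833 libraries, with the B cell marker Ms4a1 at 0 throughout. Astrocyte markers (9 of 10 in the table) summed to 12538 CPM in that library. They summed to 8082 to 9904 CPM in the other untreated and 9359 to 14281 CPM in RG2833 libraries. All 9 had a higher fitted value in RG2833 rats, 2 of them at an unadjusted p under 0.05 with edgeR (5.66% of all genes tested) and 0 at an adjusted one. Fitted values were also higher for 7 of 8 tested endothelial and 9 of 12 microglial markers. They were lower for 6 of 8 oligodendrocyte and 6 of 8 neuronal markers. Untreated replicate 3 was the lowest of the untreated for markers of oligodendrocytes (7391 CPM, others 8558 to 14474), neurons (6591 CPM, others 6875 to 8064) and dentate granule cells (102 CPM, others 149 to 260). The part of these cells in the levels of the 9 genes was not tested. In the edgeR fit without untreated replicate 3, 0 of the 9 and 0 of all genes passed at an adjusted p under 0.05. At an unadjusted p under 0.05, 14.2% of all genes did. The log2 fold changes of Irf7, Ifit2, Ifit3 and Isg15 were then -0.16, -0.052, -0.12 and -0.098, nearer to 0, while that of Mx2 was 0.26, farther from 0.

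**Figure D4:**
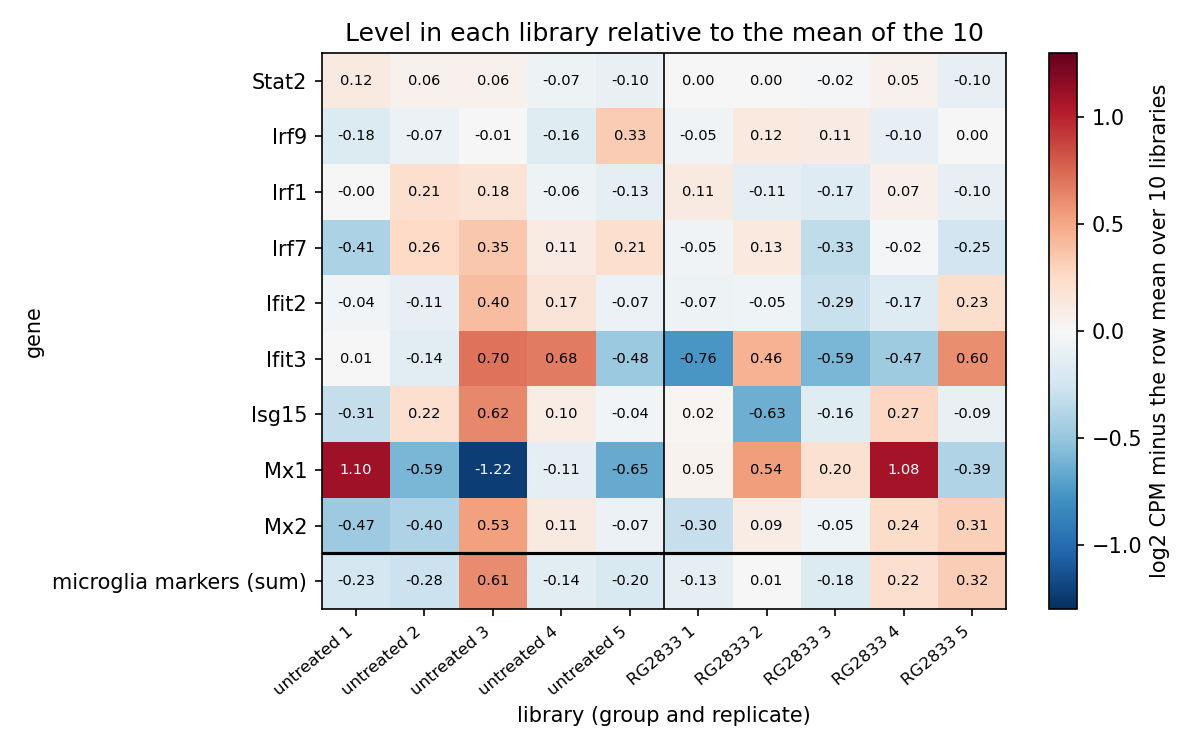
Log2 CPM of each of the 9 genes (rows) in each library (columns) minus the gene's mean over the 10 libraries, with the summed CPM of 12 microglial markers in the bottom row treated alike; red is above and blue below the mean. Untreated replicate 3 is the highest library for 5 of the 9 genes and for the microglial sum, and no column of the RG2833 group is high or low for all 9.

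In the rest of the pathway no gene passed the adjusted threshold either. Of 107 further interferon pathway entries, ordered by role, 90 were found in the table and 74 had enough counts to test. Of these, 42 were lower and 32 higher in RG2833 rats, with a median log2 fold change of -0.025; 0 passed at an adjusted p under 0.05 with edgeR or with DESeq2. At an unadjusted p under 0.05 edgeR gave 1 of the 74, where 5.66% of all genes tested passed with edgeR. DESeq2 gave 0 of the 74, and its share over all genes at that threshold is not given here. Leaving out untreated replicate 1 made that count 4 (5.41% of the 74, against 5.21% of all genes in the same fit). Leaving out untreated replicate 3 made it 3 (4.05% against 14.2%), RG2833 replicate 1 made it 2 (2.70% against 7.59%), and RG2833 replicates 3, 4 or 5 made it 0 (against 4.81%, 3.07% and 3.46%). As among the 9, single untreated libraries held many of the extremes: untreated replicate 3 was the highest for 31 of the 74, untreated replicate 2 for 18, and untreated replicate 1 was the lowest for 26. Each RG2833 library was the highest for 2 to 5, and untreated replicates 1, 4 and 5 for 5, 2 and 2. The same extremes were not counted over all genes tested.

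Of 8 interferon genes in the list, 6 were found in the table, and the transcripts of these 6 were at or near 0. Ifnb1, Ifna1, Ifna2, Ifng and Ifnk had 0 counts in 10 of 10 libraries, which allows up to 0.154 to 0.207 CPM in a single library (3 counts of its TMM-scaled size, counting error only), and Ifna4 had 1 count in all. Receptor transcripts were present. Ifnar1, a chain of the type I receptor, averaged 88.5 ± 6.53 CPM without and 93.3 ± 3.92 CPM with the drug, a log2 fold change of 0.076 (SE 0.062, 95% interval -0.060 to 0.21) (edgeR adjusted p = 0.904, exact permutation p = 0.167), and it was 0.12 without untreated replicate 3, where Ifnar1 was among the 3 pathway genes at an unadjusted p under 0.05 and 14.2% of all genes were. Ifngr1, which binds interferon gamma, had one of -0.0085 (SE 0.13, 95% interval -0.30 to 0.28) (edgeR adjusted p = 0.996, exact permutation p = 0.992), and its sign was positive without untreated replicate 3 (0.11), RG2833 replicate 1 (0.042) or RG2833 replicate 3 (0.040).

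All 5 receptor kinases and STATs of the list were tested, 2 lower and 3 higher in RG2833 rats. Of 11 sensors and adaptors tested, such as the RNA sensors Ddx58 and Ifih1, 5 were lower and 6 higher, and the median log2 fold change was 0.00036. Of 10 inhibitors, 5 were lower and 5 higher. Usp18, the protease that removes ISG15 from proteins and damps the type I receptor, measured 1.62, 2.97, 4.66, 3.06 and 3.04 CPM in the untreated rats and 2.65, 1.65, 1.66, 2.94 and 3.11 CPM in the rats given RG2833. Its pattern had untreated replicate 3 highest and untreated replicate 1 lowest, and its log2 fold change was -0.35 (SE 0.29, 95% interval -0.99 to 0.28) (edgeR adjusted p = 0.904, exact permutation p = 0.341). Without untreated replicate 3 that of Usp18 was -0.16, and without untreated replicate 1 it was -0.52.

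The other induced genes had 24 of 37 tested members lower in RG2833 rats (64.9%, against 53.5% of all genes tested) and a median log2 fold change of -0.067. Rsad2, which encodes the antiviral enzyme viperin, was at 4.01 ± 0.753 and 3.20 ± 0.862 CPM, and the log2 fold change was -0.33 (SE 0.21, 95% interval -0.80 to 0.15) (edgeR adjusted p = 0.869, exact permutation p = 0.167); it was -0.19 without RG2833 replicate 3. Oas1a, an oligoadenylate synthetase, had one of -0.074 (SE 0.17, 95% interval -0.46 to 0.31) (edgeR adjusted p = 0.977, exact permutation p = 0.587), which was 0.025 without the 2 libraries richest in choroid plexus transcripts, and from -0.17 (without RG2833 replicate 2) to -0.011 (without RG2833 replicate 3) with 1 library left out. The gene with the unadjusted p under 0.05 was Ifi27l2b, an interferon-inducible gene of the Ifi27 family, which measured 1.15, 2.36, 1.85, 1.65 and 1.36 CPM in the untreated rats and 1.29, 1.25, 1.15, 1.13 and 1.04 CPM in the rats given RG2833. All 5 RG2833 values lay below 4 of the 5 untreated ones, and untreated replicate 1 lay among them. The log2 fold change of Ifi27l2b was -0.51 (SE 0.21, 95% interval -0.98 to -0.043), with an unadjusted edgeR p of 0.0350 (edgeR adjusted p = 0.841, exact permutation p = 0.0317), from 15 to 46 counts per library. Ifit1, another IFIT gene, had 1 to 6 counts per library, and the chemokine gene Cxcl10 had 3 to 25; neither had enough counts to be tested. Ifnar2 was not analysed here.

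**Figure D5:**
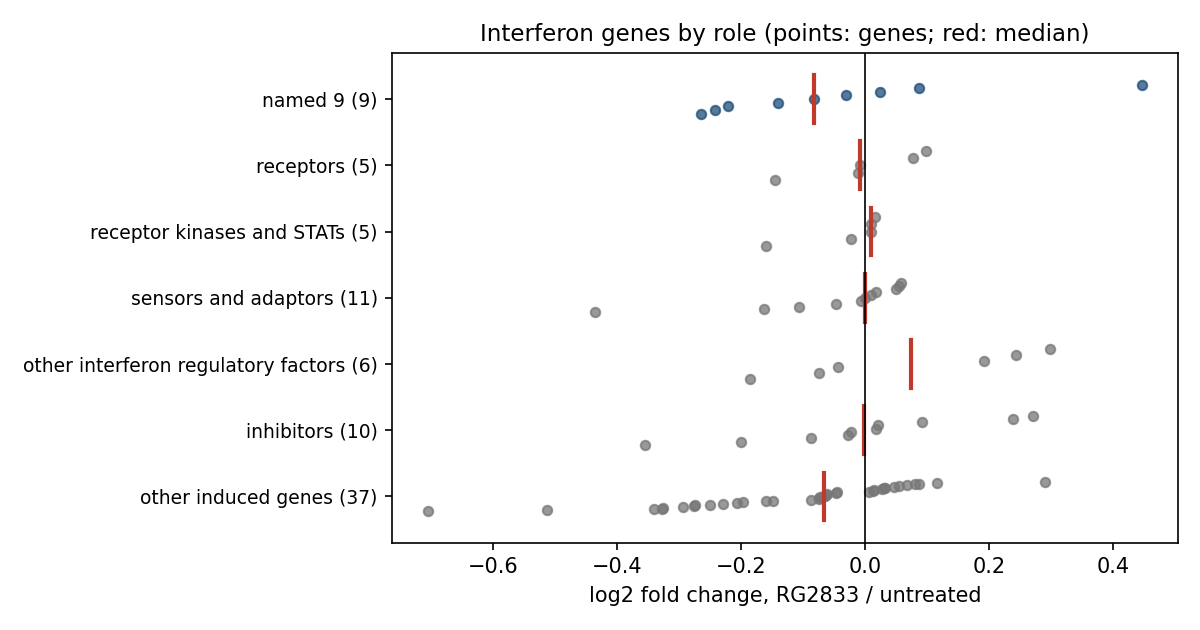
Log2 fold change (RG2833 over untreated, horizontal axis) of the 9 genes (top row, blue) and of 74 other tested interferon pathway genes by role (grey, with the number of genes in brackets); each point is a gene and the red bar is the median of the row. The medians of the pathway roles lie between -0.067 and 0.074, and that of the 9 genes is -0.082.

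The promoter motif was set against the change. Of the 74 tested pathway genes, 59 had a promoter window and 15 had none. Of 23 whose window held an ISRE core, 16 were lower and 7 higher in RG2833 rats, with a median log2 fold change of -0.073. Of 36 without it, 16 were lower and 20 higher, with a median of 0.0093. This split was not tested, and it was not recomputed with libraries left out. Leaving out 1 library moved the number of lower genes among the 74 from 42 to between 35 and 53. Over the whole table, 134 of 247 tested genes with an ISRE core were lower (54.3%), against 53.8% of 8847 without, and the medians were -0.014 and -0.012. For the GAS, 8 of 14 pathway genes with it were lower (57.1%), against 24 of 45 without (53.3%). In none of these sets did a gene have an adjusted p under 0.05 with edgeR. Only 6 of the 9 genes had a window to search. Ifit3 and Irf7, the pair with an ISRE core, had log2 fold changes of -0.27 and -0.22. Of the 4 without it, 2 were lower and 2 higher, with a median of -0.0031, and Isg15, which had no window, was at -0.24.

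The genes outside the list whose log2 CPM was most like that of the 9, by the mean Pearson r with them over 10 libraries, were Il3ra, Srek1, Chka, Surf2 and Idua. Their mean r was between 0.37 and 0.38, and each had an r of at most -0.41 with at least 1 of the 9. All 5 were highest in untreated replicate 3, and without that library, a check added after the data were seen, their mean r was between 0.20 and 0.24. Il3ra, the alpha chain of the interleukin-3 receptor, had a mean r of 0.38 and averaged 8.26 ± 3.37 CPM without and 6.73 ± 1.38 CPM with the drug (n = 5 each).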

How the data were processed

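Strand-specific mRNA libraries were made from left hippocampus, per the labels' protocols. The authors deposited RSEM expected counts per gene, estimates that need not be whole, and a second table of TMM-scaled CPM, a normalized signal. Bowtie2 2.1.0, RSEM 1.2.15, edgeR and the build rn6 are named per the submitters' processing notes; annotation, filters and use of strand are not given in the sources used here. In every library of the deposited signal table, 100% of values above 0 were whole multiples of 1 step (tolerance 0.05), and the reads so recovered equalled the rounded expected counts for 100% of genes, so a count test on them is the same test.

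Expected counts were rounded to whole numbers (ties upwards) and fitted with edgeR 4.0.16 in R 4.3.3: filterByExpr (minimum count 10, minimum total 15), TMM, robust quasi-likelihood F test, Benjamini-Hochberg over 12161 genes. Log2 CPM used a prior count of 2. Total counts ran from 15118203 to 18533520 per library; no library pair was a duplicate (smallest chi-square per gene 7.38 over 45 pairs). The fit was tested on simulated data. The 9 genes and all lists were chosen with earlier results of these data known. Named genes were the 9, pathway genes chosen by symbol in any case (1 of them is not reported here), pathway genes at an unadjusted p under 0.05, and the 5 genes most alike in pattern. Alternatives were median-of-ratios and upper-quartile scaling, no filter, at least 1 CPM in 5 libraries, DESeq2 1.42.0, a replicate term, each library left out, the 2 libraries richest in Ttr left out, a prior count of 0.5, the deposited CPM as log2(CPM + 1) and, added after the data were seen, Mx1 and Mx2 summed. Promoters came from RefSeq (GRCr8), whose coordinates are not those of rn6.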

Additional observations from a re-analysis of the deposited data

Results flagged for a closer look

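In 40 sets of 5 values (1 group each), 5 had a highest or lowest library whose gap to the next exceeded 0.71 of the group's range. For independent sets of normal values chance gives about 1 in 20, or 2.0 sets. The 40 sets share the same 10 libraries and are not independent, so the 2 numbers are not a test. Mx1 in untreated replicate 1 had 8.94 CPM and the rest of its group 1.79 to 3.86 CPM, so the gap was 0.711 of the range. The share of the Mx1 and Mx2 counts given to Mx1 was 24.2% in the same library, against 3.09% to 8.63% in the others (gap 0.737). Ifnar1 in RG2833 replicate 1 was at 86.3 CPM, against 94.5 to 96.0 CPM in the other RG2833 libraries (gap 0.850). Ifngr1 in untreated replicate 3 was at 69.9 CPM, against 44.5 to 50.5 CPM (gap 0.764). The summed level of 12 microglial markers reached 1188 CPM there, and 639 to 704 CPM in the rest of the group (gap 0.882).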

How the results depend on the processing

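In each of 17 alternatives, 0 of the 9 genes passed at an adjusted p under 0.05. Over all genes tested, DESeq2 called 7 at an adjusted p under 0.05, where edgeR called 0; 0 of the 7 were among the 9 or the pathway genes. At an unadjusted p under 0.05, pathway genes numbered 1 of 74 with edgeR and 2 of 85 with no filter, where all genes numbered 688 and 779. With DESeq2 they numbered 0, and its count over all genes at that threshold is not given here. Leaving out 1 library at a time gave 375 (without RG2833 replicate 4) to 1732 (without untreated replicate 3) of all genes, 0 to 2 of the 9 and 0 to 4 pathway genes at that threshold; the 2 of the 9 were Irf7 and Mx1, without untreated replicate 1, where 5.21% of all genes were at that threshold and the difference of mean log2 CPM was -0.33 (exact permutation p = 0.0238) for Irf7 and 0.91 (exact permutation p = 0.0317) for Mx1. Genes with a lower fitted value in RG2833 rats then numbered 6 to 8 of the 9 and 35 to 53 pathway genes. Signs turned for log2 fold changes near 0: leaving out libraries, the range was -0.016 to 0.12 for Irf9, -0.0080 to 0.26 for Mx2 and -0.063 to 0.11 for Ifngr1, and -0.0063 to 0.12 for the difference of mean log2 CPM of Irf9. Without the 2 libraries richest in Ttr, Ifngr1 was at 0.016 and Oas1a at 0.025. The cause of these changes was not tested. With the replicate block, 401 genes had an unadjusted p under 0.05, in place of 688, and Ifngr1 had a log2 fold change of 0.00092. Deviations of same-numbered libraries correlated at -0.49 to -0.034, and in 0 of 5 pairs was the own number the best match. No pairing by number was seen, but with 5 libraries per group this check cannot exclude one. Counts were low for Isg15, at 26 to 59 per library, and for Mx1, at 30 to 155.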

Other observations

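Some pathway genes, chosen here after their values were seen, were high in the 2 libraries with high choroid plexus markers. Lgals3bp, which encodes a secreted galectin-binding glycoprotein, was at 87.0 CPM in untreated replicate 2 and 79.7 CPM in RG2833 replicate 1, against 20.8 to 33.2 CPM in the other 8 libraries. Tlr3, the receptor for double-stranded RNA, was at 14.3 and 12.6 CPM in these libraries, against 5.65 to 10.4 CPM. Ifitm3, a membrane protein that restricts virus entry, was at 16.5 and 9.04 CPM, against 4.44 to 8.42 CPM. Its relatives Ifitm2 (16.6 and 8.45 CPM) and Ifitm1 (5.07 and 1.29 CPM) did not separate these libraries. In untreated replicate 3 they were at 11.0 and 2.27 CPM. The summed choroid plexus markers were at 7913 CPM in untreated replicate 2, 9182 CPM in RG2833 replicate 1 and at most 277 CPM in the others. The part of the choroid plexus in the levels of these pathway genes was not tested. Each group holds 1 of the 2 libraries. Over the 74 tested pathway genes, untreated replicate 2 was the highest library for 18 and the lowest for 1, and RG2833 replicate 1 the highest for 3 and the lowest for 5. None of the 9 interferon-stimulated genes was highest in RG2833 replicate 1, and Irf1 alone of them was highest in untreated replicate 2.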
